A study of Mus musculus with 6 samples.

Results

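The 41 genes described here encode components of the NF-kB signalling pathway and the feedback genes that the pathway itself switches on. They were taken as a fixed list of gene symbols, and all 41 were found among the 40879 symbols of the count files. The cells carry the label of primary hepatic stellate cells from male mice of wild-type genotype, and were incubated for 24 h in vehicle (3 libraries) or APB-R3 (3 libraries), an engineered form of the secreted IL-18 binding protein. The dose of APB-R3 appears as 150 µg/ml in one place of the submitters' text and as 150 µg/kg in another. No age is given, and whether each replicate was its own animal or culture is not stated. A p-value here therefore reflects only how far these libraries scatter, which may be technical.

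NF-kB dimers are held in the cytoplasm by IkB proteins. Receptors of the TNF, IL-1 and Toll families act through differing sets of adaptors (MYD88, TRAF proteins), IRAK and RIP kinases and the TAK1 complex. The IL-18 receptor belongs to the IL-1 receptor family. These routes meet on the IKK complex, which marks IkB for destruction and frees the dimers. The dimers then drive genes for inflammation and for their own shut-down, among them the IkB genes and the ubiquitin editor A20, encoded by Tnfaip3. In the liver this pathway serves inflammatory signalling in stellate, endothelial and Kupffer cells.

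All values are of whole cultures, and in such bulk samples fewer cells of a type and less RNA per cell cannot be told apart. Libraries held between 8323809 and 10792531 counts, with the lowest total in APB-R3 replicate 1. Endothelial markers summed to between 5919 and 7031 CPM (counts scaled to a library total of 1000000) per library, and stellate cell and pericyte markers to between 1020 and 1237 CPM. The endothelial genes Lyve1, Cdh5 and Pecam1 had means of 1715, 1149 and 935 CPM, while the stellate cell genes Lrat, Des, Pdgfrb and Ngfr had 1.68, 4.70, 8.12 and 0.131 CPM. Dcn and Col1a1, matrix genes of stellate cells and fibroblasts, had 308 and 139 CPM. Of the same list, Tagln, Col1a2, Acta2, Ecm1 and Col3a1 had 237, 119, 114, 72.8 and 58.3 CPM. Each list thus held high and low genes, and the endothelial genes Gpr182 and Vwf had 4.12 and 1.45 CPM. The high endothelial levels go against a culture of stellate cells alone, whatever its label. The share of each cell type was not measured. Macrophage markers summed to between 422 and 699 CPM, hepatocyte markers to between 24.0 and 126 CPM (highest in vehicle replicate 2), neutrophil markers to between 2.38 and 11.3 CPM and lymphocyte markers to between 0.476 and 2.22 CPM. The members' levels below therefore cannot be assigned to one cell type.

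None of the 41 members passed edgeR's quasi-likelihood test of APB-R3 against vehicle at an adjusted p under 0.05, and neither did any other of the 12776 genes tested (0% called, every member with adjusted p = 0.9998). No gene was called by limma-voom or DESeq2 either, and 427 and 376 genes had an unadjusted p under 0.05 there, against 425 by edgeR. At an unadjusted p under 0.05 stood 3 members, as with each of those tools, against 3.33% of all tested genes. They were Nfkbiz and Ptgs2, above vehicle (1.75% of all genes in that direction), and Map3k14, below it (1.57%). The groups did not overlap in 5 members, or 12.2%, against 8.91% of all genes, so the members' share lay near the background. Nfkbiz, Ptgs2 and Tnfrsf1a lay above in all 3 APB-R3 libraries (background 4.75%), and Traf6 and Map3k14 below (4.16%).

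A single library, APB-R3 replicate 1, stood apart among the members and was also the most unlike the others beyond them. Its chi-square per degree of freedom against each other library, over genes with at least 20 counts, was 9.58 to 13.6. Between the remaining libraries the same measure was 5.54 to 8.84. The fold changes of Nfkbia, Nfkbiz, Tnfaip3, Tnf, Bcl2a1b and Bcl2a1a and the medians of both classes are given below with and without that library. No such value is given for other members that peaked there, such as Csf1, Tnip1 and Nfkbib. The list was read in 2 classes, 21 genes that NF-kB is known to induce and 20 components that are mostly made at a steady rate. The inducible class held the cytokines, A20, the IkB genes except Nfkbib and the subunits except Rela. It also held the receptor gene Tnfrsf1b, the adaptor gene Traf1 and the kinase genes Irak2, Irak3 and Ripk2. The constitutive class held Nfkbib, Rela, Tnfrsf1a and most adaptors and kinases. APB-R3 replicate 1 had the highest CPM of the 6 libraries in 14 of the 21 inducible genes (66.7%) and in 4 of the 20 constitutive ones (20%), where 19.5% of all tested genes peaked in that library. The classes were drawn with earlier results of these data known, so this contrast is a description and not a test. Summed over the inducible genes, that library reached 2566 CPM, while the remaining 5 stayed between 1823 and 2029 CPM. Without Nfkbia, the most abundant gene of the class, the sums were 1359 CPM there and 1026 to 1125 CPM in the rest. The constitutive genes summed to 1370 CPM there, inside their range of 1323 to 1393 CPM. As a ratio of these sums, the inducible class stood at 1.87 in APB-R3 replicate 1 and between 1.37 and 1.5 elsewhere. The same library had the lowest count total, and the lowest sums of endothelial (5919 CPM) and of stellate cell and pericyte markers (1020 CPM). The part of depth or of cell makeup in the members' values was not tested.

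**Figure D1:**
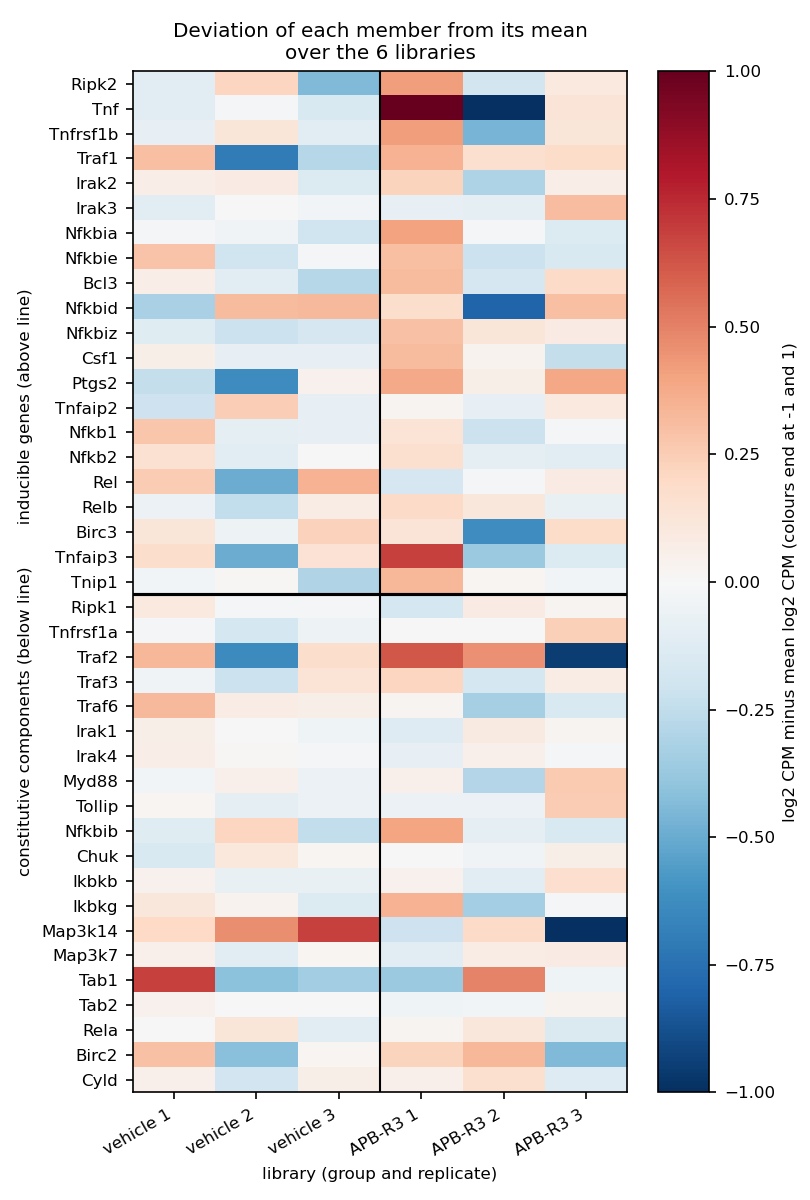
Each row is a member and each column a library, and colour gives the log2 CPM minus the member's mean log2 CPM over the 6 libraries, with inducible genes above the horizontal line and constitutive ones below. The column of APB-R3 replicate 1 is mostly red above the line, where 14 of 21 genes had their highest value, and mixed below it. The classes were drawn with earlier results of these data known.

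A kappa-B element, the DNA site that NF-kB dimers bind, was looked for in the members' promoters, since it is the feature that ties a feedback gene to the pathway. RefSeq windows of GRCm38.p6, from 250 bases before to 50 after a start site, were at hand for 35 members. The 6 without a window, Nfkbiz, Nfkb1, Relb, Ikbkb, Ripk2 and Tab1, were not searched. The letters GGGNNTTTCC, where N is any base, were searched on both strands without other motifs. They were found in 9 of these 35 members (25.7%), 5 of 17 inducible (29.4%) and 4 of 18 constitutive ones (22.2%), and in 1.63% of all 32851 windows, or 1.89% of the 27025 genes that have one. Of the 9932 tested genes with a window, 2.19% had a match. Each match is printed with up to 10 bases on either side, read along the strand that carries the motif, with the motif in capitals.
Nfkbia, chr12:55492657-55492686, plus strand: gtcaggcgcgGGGAATTTCCaagccagtca
Tnfaip3, chr10:19015403-19015432, plus strand: ttgccaacagGGGGATTTCCgatggaaatt
Csf1, chr3:107760604-107760633, plus strand: ctggcccctaGGGACTTTCCctcaaggccc
Rel, chr11:23771041-23771070, plus strand: ggggagggggGGGGATTTCCcgctgcttac
Nfkb2, first site, chr19:46304716-46304745, plus strand: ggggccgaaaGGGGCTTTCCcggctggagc
Nfkb2, further site, chr19:46305695-46305724, plus strand: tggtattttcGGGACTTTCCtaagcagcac
Cyld, chr8:88696863-88696892, minus strand: gctggctgaaGGGACTTTCCgctcggtcaa
Map3k7, chr4:31964005-31964034, minus strand: gacccgagcgGGGAATTTCCtgacccgggg
Traf3, chr12:111166350-111166379, plus strand: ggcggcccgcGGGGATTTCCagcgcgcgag
Traf2, chr2:25546891-25546919, minus strand: gcggcagcggGGGTGTTTCCcggcgagcg

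The first 5 genes of this list are inducible and the last 4 constitutive. The further Nfkb2 match and the Traf2 match lie after the start site of their windows, from bases 11 and 32, and the others before it. Nfkbia and Map3k7 share the 10 motif bases, as do Csf1, Cyld and the further Nfkb2 site, and so do Tnfaip3, Rel and Traf3. Of the 9 genes with a match, 6 peaked in APB-R3 replicate 1, against 9 of the 26 members with a window and no match and 19.5% of all tested genes. In Tnfaip3, Nfkbia, Csf1, Traf2, Traf3 and Nfkb2 the peak was 1.42, 1.34, 1.19, 1.13, 1.06 and 1.0 times the next library, the last a near tie. The classes were not set apart in this contrast. The median log2 fold changes were 0.07 with a match and 0.008 without. Whether the motif has a part in these peaks was not tested. A match is a description of letters and not a bound site. Nfkbia, the most abundant member, is also shown as its whole stretch of 250 bases before the start site, chr12:55492648-55492897 on the minus strand, in which the capitals mark the same match read from the gene's own strand.
Nfkbia: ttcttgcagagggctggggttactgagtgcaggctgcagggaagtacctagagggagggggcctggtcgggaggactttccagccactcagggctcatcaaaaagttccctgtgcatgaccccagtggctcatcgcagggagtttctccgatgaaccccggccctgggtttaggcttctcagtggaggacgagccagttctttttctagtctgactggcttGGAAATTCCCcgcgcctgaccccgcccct

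The members spanned a wide range of levels. Library kits of this kind read 1 fragment per transcript near its 3' end, so CPM of different genes were set side by side without scaling for length. Nfkbia had a mean of 922 ± 146 CPM (SD, n = 6), above 99.1% of the tested genes, and on its own made up between 25.0% and 30.7% of the members' summed CPM. Next came Csf1 at 284 ± 38.5 CPM and Tnip1 at 256 ± 36.5 CPM. The lowest mean levels were those of Nfkbid at 3.86 ± 1.06 CPM, Tab1 at 4.08 ± 1.43 CPM, Map3k14 at 5.74 ± 2.22 CPM and Tnf at 5.81 ± 6.62 CPM. All 41 members passed the filter on low counts. The spread over the 6 libraries also differed, with a median coefficient of variation of 16.2% among inducible and 9.55% among constitutive genes, against 14.4% over all tested genes. Levels differed as well, with medians of the mean CPM of 22.4, 44.7 and 21.4 in the same order. The part of level in this spread was not tested. At the ends stood Tnf with 114% and Tab2, an adaptor of the TAK1 complex, with 2.22%.

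**Figure D2:**
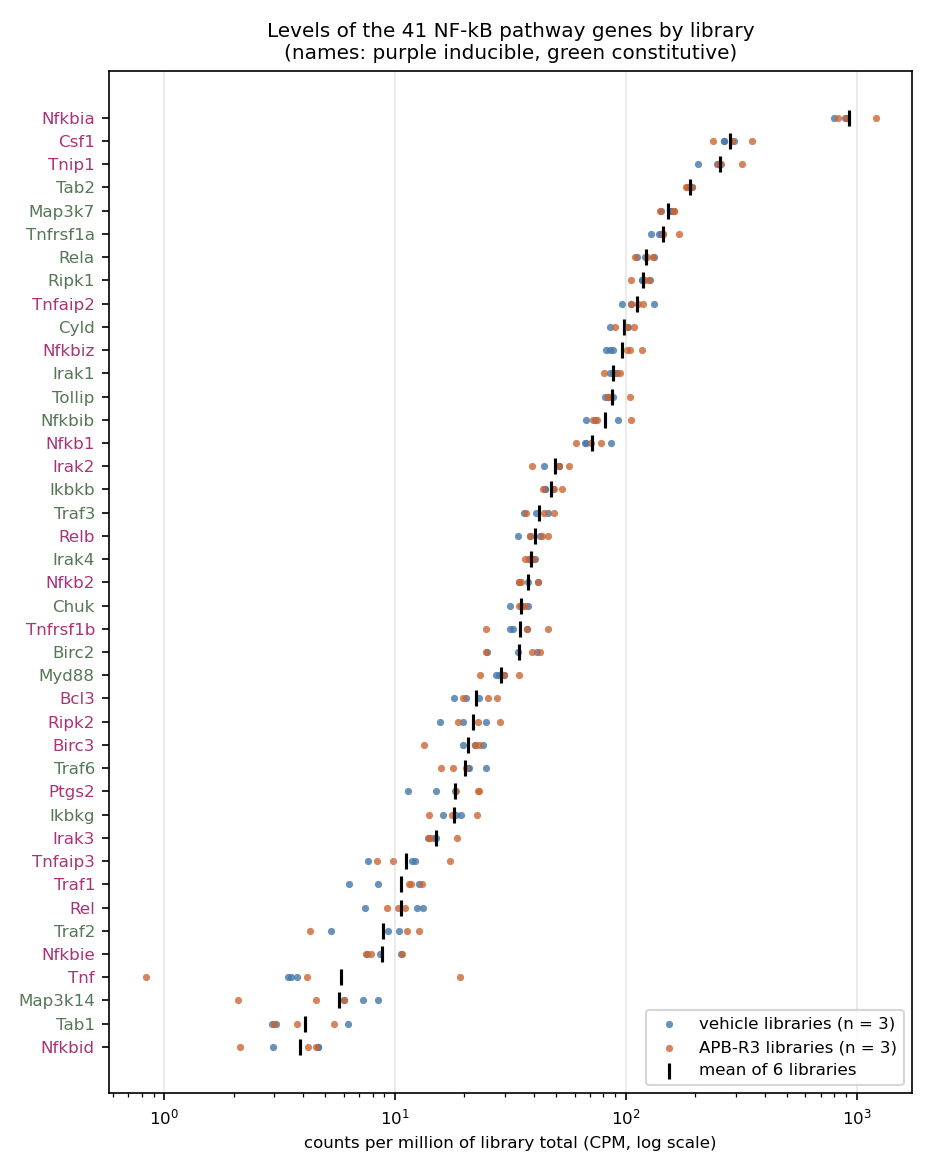
Points give the CPM of each library on a log axis for the 41 members, ordered by their mean over 6 libraries (black bars), with purple names for inducible and green names for constitutive genes. Nfkbia stands apart at a mean of 922 CPM, and the libraries of Tnf are spread over a wider range than those of any other member, from 0.834 to 19.1 CPM.

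Among the NF-kB subunits, Rela, which encodes the p65 subunit that activates transcription, had 121, 132 and 112 CPM in vehicle replicates 1 to 3 and 124, 131 and 110 CPM in APB-R3 replicates 1 to 3. The groups lay on top of each other, and the log2 fold change was −0.01 (SE 0.10), with a 95% interval, not adjusted for the number of genes, from −0.22 to 0.21. Nfkb1, the gene of p105 and its product p50, had 86.2, 66.5 and 67.0 CPM with vehicle and 78.0, 61.1 and 70.4 CPM with APB-R3. Its log2 fold change was −0.08 (SE 0.12), and the groups overlapped. Relb, the partner of p52 in the non-canonical branch, had 38.6, 34.0 and 42.3 CPM with vehicle and 45.9, 43.5 and 38.3 CPM with APB-R3. Only 2 of its 3 APB-R3 libraries exceeded all vehicle libraries, and the log2 fold change was 0.15 (SE 0.13). With 1 library left out it ran from 0.08 (vehicle replicate 2 out) to 0.23 (APB-R3 replicate 3 out). Nfkb2, the gene of p100 and p52, had 37.9 ± 3.51 CPM with vehicle and 37.2 ± 4.01 CPM with APB-R3 (SD, n = 3), and Rel, which encodes c-Rel, 11.0 ± 3.16 and 10.2 ± 0.888 CPM. The 5 subunit genes together summed to 282 ± 15.0 CPM with vehicle and 281 ± 17.0 CPM with APB-R3.

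The classical inhibitors IkB alpha, beta and epsilon keep dimers out of the nucleus. Nfkbia, which encodes IkB alpha and is the textbook feedback target, had 904, 891 and 797 CPM with vehicle and 1207, 901 and 830 CPM with APB-R3. A single library, APB-R3 replicate 1, lay above all the others, and the remaining APB-R3 libraries fell inside the vehicle range. For Nfkbia the log2 fold change was 0.18 (SE 0.11) with all libraries and −0.01 without that one. Nfkbia over Rela, a ratio within each library, was 9.77 in APB-R3 replicate 1 and between 6.74 and 7.54 in the other 5. Nfkbib and Nfkbie also had their highest value in APB-R3 replicate 1, at 105 and 10.7 CPM. In Nfkbie, vehicle replicate 1 came close at 10.6 CPM. The groups overlapped in each of these 3 genes.

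Of the nuclear IkB proteins, which act on transcription inside the nucleus, Nfkbiz gave the smallest p among the members. Nfkbiz encodes IkB zeta, a cofactor induced by IL-1 and Toll-like receptor signals and needed for secondary response genes such as Il6. It had 87.6, 82.3 and 85.0 CPM with vehicle and 117, 104 and 101 CPM with APB-R3. Every APB-R3 library exceeded every vehicle library, here not through replicate 1 alone. The log2 fold change of Nfkbiz was 0.33 (SE 0.10, 95% interval 0.12 to 0.54). By edgeR it ranked 24 of the 12776 genes and did not pass (adjusted p = 0.9998). Without APB-R3 replicate 1 the log2 fold change was 0.26, and over all alternatives it ran from 0.24 to 0.38. Bcl3, a coactivator of p50 and p52 dimers, had 20.5 ± 2.51 CPM with vehicle and 24.2 ± 4.05 CPM with APB-R3, and Nfkbid, which encodes IkB NS, 4.09 ± 0.968 and 3.63 ± 1.31 CPM (SD, n = 3 each). Both of these overlapped between the groups.

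Ubiquitin editing sets how long the signal lasts. Tnfaip3, whose product A20 trims ubiquitin chains from RIPK1 and TRAF6, had 12.2, 7.66 and 11.9 CPM with vehicle and 17.3, 8.34 and 9.83 CPM with APB-R3. APB-R3 replicate 1 was again the highest, and the others lay within the vehicle range. The log2 fold change of Tnfaip3 was 0.15 (SE 0.27), −0.23 without APB-R3 replicate 1 and −0.03 without vehicle replicate 2. Tnip1, which encodes the A20-binding protein ABIN-1, had 237 ± 26.6 CPM with vehicle and 276 ± 38.5 CPM with APB-R3, with 320 CPM in replicate 1. Cyld, another deubiquitinase, had 96.3 ± 9.15 and 99.9 ± 9.57 CPM. The ubiquitin ligase gene Birc2 (cIAP1) had 33.4 ± 8.09 and 35.4 ± 9.42 CPM (SD, n = 3 each), and Birc3 (cIAP2) ranged from 13.3 to 24.0 CPM over the 6 libraries. The groups overlapped in all 4 of these genes.

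The TRAF adaptors link receptors to these ligases. Traf6, the adaptor of IL-1, IL-18 and Toll-like receptor signals, had 24.9, 20.9 and 20.7 CPM with vehicle and 20.3, 15.8 and 17.9 CPM with APB-R3. The highest of the APB-R3 values was below the lowest vehicle value, though by little. Its log2 fold change was −0.31 (SE 0.17, 95% interval −0.66 to 0.04), and it ran from −0.45 to −0.23 over the alternatives. Traf1, an inducible member, had 6.34 to 12.7 CPM with vehicle and 11.5 to 13.1 CPM with APB-R3. Traf2 ranged from 4.27 to 12.7 CPM, with both ends in APB-R3 libraries, and Traf3, a brake on the non-canonical branch, from 36.1 to 48.7 CPM.

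**Figure D3:**
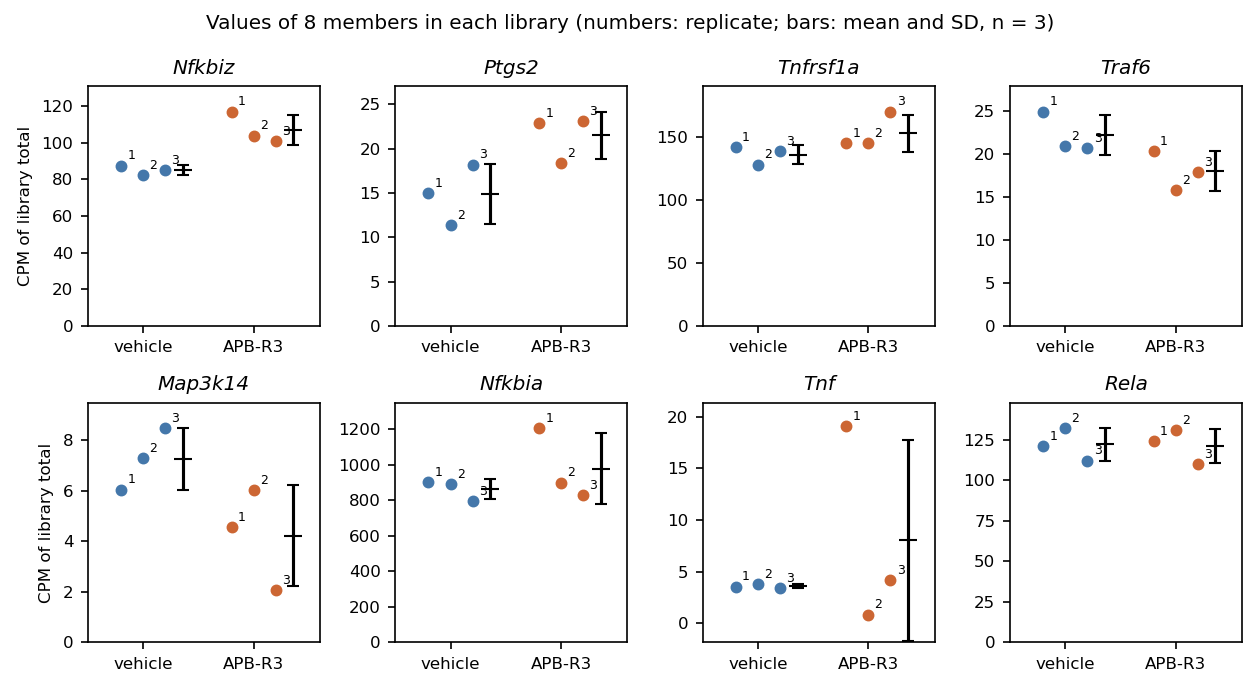
CPM of 8 members in each vehicle and APB-R3 library, numbered by replicate, with the mean and SD of 3 libraries beside the points. In Nfkbiz the groups are separated by a gap between 87.6 and 101 CPM, while Nfkbia (1207 CPM) and Tnf (19.1 CPM) have 1 high APB-R3 library and Rela has none.

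The kinase complexes had the smallest median coefficient of variation of the roles, 7.45% over 7 genes. Within this role Map3k14 and Tab1, both low in counts, had 38.7% and 35.0%. Ikbkb, which encodes the IKK beta kinase, had 48.6, 44.8 and 44.7 CPM with vehicle and 48.7, 43.8 and 53.1 CPM with APB-R3, with overlapping groups and a log2 fold change of 0.07 (SE 0.12, 95% interval −0.18 to 0.32) that ran from 0.011 to 0.134 with 1 library left out. Chuk (IKK alpha) had 35.0 ± 3.14 and 35.3 ± 1.15 CPM, and Ikbkg (NEMO, the regulatory subunit) 17.9 ± 1.59 and 18.1 ± 4.34 CPM. Map3k7, which encodes TAK1, had 152 ± 8.70 and 155 ± 11.8 CPM, and its partner Tab2 190 ± 3.47 and 187 ± 4.87 CPM (SD, n = 3 each). Another partner, Tab1, was counted at a mean of 4.08 CPM. The 7 kinase complex genes summed to 452 ± 11.3 CPM with vehicle and 452 ± 14.8 CPM with APB-R3.

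Map3k14 stood out in this group. It encodes NIK, the kinase of the non-canonical branch, which is controlled mainly by protein breakdown. Its values were 6.04, 7.28 and 8.47 CPM with vehicle and 4.57, 6.02 and 2.08 CPM with APB-R3, from 63, 77 and 89 counts and 38, 65 and 21 counts. The groups did not overlap, but vehicle replicate 1 and APB-R3 replicate 2 had nearly the same value. For Map3k14 the log2 fold change was −0.78 (SE 0.35, 95% interval −1.52 to −0.04), rank 317 of 12776 by edgeR (adjusted p = 0.9998). It was smallest in size without APB-R3 replicate 3, at −0.44, so much of this difference rests on that library. Of the subunits of the non-canonical branch, neither Relb nor Nfkb2 lay below vehicle in all 3 libraries.

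Adaptors of the Toll and IL-1 receptor family differed little. Myd88, the adaptor shared by the IL-1, IL-18 and most Toll-like receptors, had 28.1, 29.7 and 27.5 CPM with vehicle and 29.7, 23.4 and 34.3 CPM with APB-R3. Both the lowest and the highest library were APB-R3 libraries, and the log2 fold change was 0.03 (SE 0.15, 95% interval −0.29 to 0.34). The kinase genes Irak1 and Irak4 had 88.3 ± 3.05 and 88.1 ± 6.98 CPM, and 39.3 ± 1.26 and 38.4 ± 1.79 CPM. Irak2 had 49.0 ± 4.17 and 49.1 ± 8.95 CPM. The inhibitory Irak3 (IRAK-M) had 14.6 ± 0.621 and 15.6 ± 2.56 CPM, and the dampening adaptor Tollip 84.5 ± 3.36 and 90.3 ± 11.6 CPM (SD, n = 3 each). The log2 fold changes of these 6 genes lay between −0.04 and 0.09, and their 95% intervals all stayed within a 1.5-fold change. The RIP kinase genes, Ripk1 of TNF signalling and Ripk2 of NOD receptor signalling, had 120 ± 5.32 and 117 ± 11.0 CPM, and 20.1 ± 4.49 and 23.3 ± 4.79 CPM.

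Tnf, the cytokine gene that both triggers the pathway and is driven by it, had 3.55, 3.78 and 3.43 CPM with vehicle, from 37, 40 and 36 counts. With APB-R3 it had 19.1, 0.834 and 4.17 CPM, from 159, 9 and 42 counts. The highest and the lowest of the 6 libraries were both APB-R3 libraries, beside tightly grouped vehicle libraries. The log2 fold change of Tnf was 1.13 (SE 0.59, 95% interval −0.1 to 2.36) with all libraries and −0.55 without APB-R3 replicate 1, so its direction rests on that library. Macrophages are a main source of TNF. Macrophage markers summed to 496 CPM in APB-R3 replicate 1, inside the range of the other libraries, and that library was the highest in 1 of 14 tested macrophage markers. Of 12 neutrophil markers, 4 (Ly6g, Cxcr2, Elane and Camp) had 0 counts in all 6 libraries, while S100a8 had a mean of 2.11 CPM and Ltf 1.02 CPM. Their sum was 4.57 CPM in APB-R3 replicate 1, inside the range of 2.38 to 11.3 CPM. The part of these cells in the Tnf values was not tested.

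Tnfrsf1a, the widely made TNF receptor 1, had 142, 128 and 139 CPM with vehicle and 145, 145 and 170 CPM with APB-R3. The APB-R3 libraries lay above vehicle, replicates 1 and 2 by little, with a log2 fold change of 0.17 (SE 0.10, 95% interval −0.04 to 0.37), or 0.095 without APB-R3 replicate 3. Tnfrsf1b, the inducible TNF receptor 2, ranged from 24.8 to 45.8 CPM, with both ends in APB-R3 libraries. Ptgs2, which encodes the prostaglandin-forming enzyme COX-2, had 15.0, 11.4 and 18.2 CPM with vehicle and 22.9, 18.4 and 23.1 CPM with APB-R3. All APB-R3 libraries exceeded all vehicle libraries, APB-R3 replicate 2 only just. The log2 fold change of Ptgs2 was 0.53 (SE 0.19, 95% interval 0.14 to 0.92), rank 62 of 12776 by edgeR (adjusted p = 0.9998). Since the groups did not overlap, leaving libraries out could hardly turn this direction, and only the size is informative. Over the 14 alternatives the log2 fold change of Ptgs2 ran from 0.32 to 0.69, and it was 0.47 without APB-R3 replicate 1. It was 0.38 without vehicle replicate 2 and 0.32 with both of these libraries left out together. In neither of the last 2 fits was Ptgs2 at an unadjusted edgeR p under 0.05. Csf1, the growth factor of macrophages, had 275 ± 16.5 and 293 ± 56.6 CPM, with 352 CPM in APB-R3 replicate 1. Tnfaip2 had 111 ± 19.0 and 113 ± 6.95 CPM (SD, n = 3 each).

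**Figure D4:**
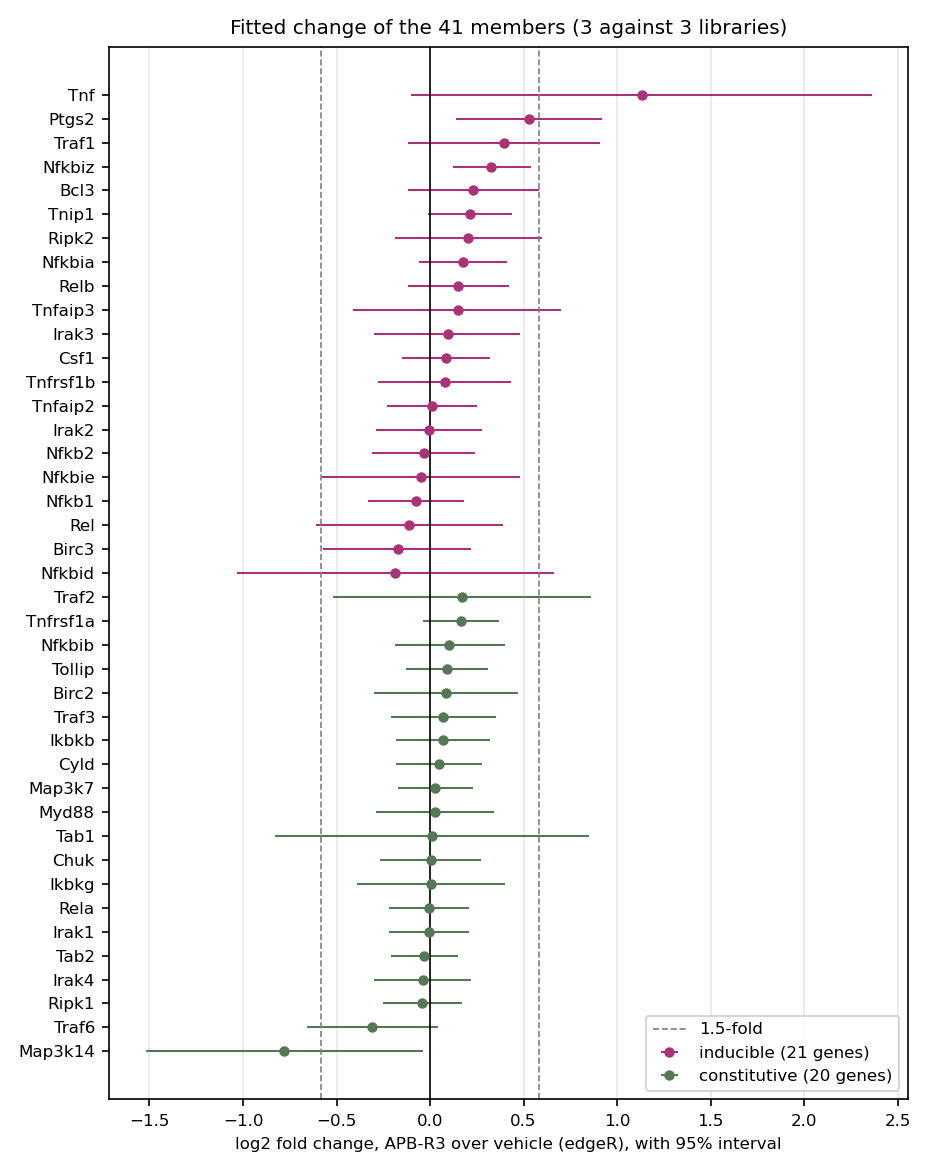
Log2 fold change of APB-R3 over vehicle for each member, with 95% intervals not adjusted for the number of genes, inducible genes above and constitutive ones below, and dashed lines at a 1.5-fold change. Most intervals, 30 of 41, lie between the dashed lines, and those of Nfkbiz, Ptgs2 and Map3k14 do not cross 0.

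Set against each other, the classes had small medians. The median log2 fold change was 0.09 over the inducible genes, 14 of 21 of them above 0, and 0.02 over the constitutive genes, 13 of 20 above 0. Over all tested genes it was 0.003, with 50.7% above 0. Without APB-R3 replicate 1 the inducible median was −0.06, with 8 of 21 above 0, and the constitutive median 0.001, with 10 of 20 above 0. Over all 41 members, 27 were above 0 with all libraries and 18 without that one. The 95% interval stayed within a 1.5-fold change in 16 of 20 constitutive and 14 of 21 inducible members, and in 7461 of the 12776 genes tested. It went beyond a 2-fold change in Tnf, Map3k14 and Nfkbid, the last from −1.03 to 0.66.

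**Figure D5:**
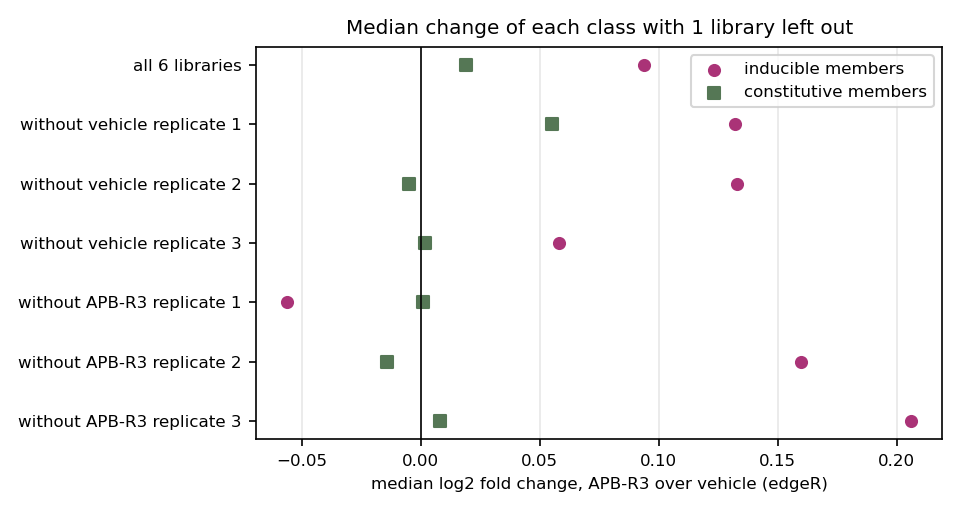
Median log2 fold change over the inducible (circles) and constitutive (squares) members with all 6 libraries and with each library left out in turn. The inducible median runs from −0.056 without APB-R3 replicate 1 to 0.206 without APB-R3 replicate 3, and the constitutive one from −0.014 to 0.055.

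A further list held 64 other genes of the pathway, such as LUBAC ubiquitin ligase subunits, Toll-like receptors, TBK1 and its partners and survival genes, of which 61 were tested. None of them passed in either direction, 31 had a log2 fold change above 0 and 30 below, and the median was 0.004. At an unadjusted edgeR p under 0.05 stood 5 of the 61 (background 3.33%), of which 4 lay above vehicle (background 1.75%). The groups did not overlap in 11 of the 61, or 18%, against 8.91% of all genes, 8 of them higher and 3 lower with APB-R3. Each of these tallies holds the near-identical copies Bcl2a1b and Bcl2a1a as separate genes, though they may not be separate results. The 4 genes with the smallest p are given here. Bcl2a1b, a survival gene driven by NF-kB, had 14.9, 15.2 and 10.4 CPM with vehicle and 26.9, 16.5 and 19.7 CPM with APB-R3, and its log2 fold change was 0.63 (SE 0.21), or 0.41 without APB-R3 replicate 1. Its near-identical copy Bcl2a1a had 3.64, 4.35 and 3.62 CPM with vehicle and 8.17, 5.65 and 6.85 CPM with APB-R3, 0.82 (SE 0.32), or 0.675 without APB-R3 replicate 1. Both counts are uncertain, since reads of these copies can be split between them. Tnfrsf12a, the receptor of TWEAK, had 25.6, 17.5 and 24.0 CPM with vehicle and 31.4, 27.2 and 31.3 CPM with APB-R3, 0.42 (SE 0.16), or 0.28 without vehicle replicate 2. Il1r1, the signalling receptor of IL-1, had 51.7, 46.6 and 43.1 CPM with vehicle and 37.5, 40.3 and 39.2 CPM with APB-R3, −0.28 (SE 0.12). These 4 are among the 11 without overlap, and APB-R3 replicate 1 was the highest library in the first 3 and the lowest in Il1r1.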

How the data were processed

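Per the labels' protocols, RNA was extracted with Trizol and sequenced with the Lexogen QuantSeq kit. Per the submitters' processing notes, bcl2fastq 2.20.0.422, fastp, STAR and HTSeq were used on GRCm39. Options, strand setting and molecular identifiers: not given in the sources used here. Raw counts per gene symbol were deposited. File headers number replicates 2 to 4, and the titles' 1 to 3 were used. Members, classes, lists and tests were chosen with earlier results of these data known. Over all 12776 genes passing filterByExpr (minimum count 10, total 15), APB-R3 was compared with vehicle by edgeR 4.0.16 (TMM, glmQLFTest, Benjamini-Hochberg, threshold 0.05) in R 4.3.3, tested on simulated data. Standard errors are the log2 fold change over the square root of F. Alternatives were other scalings and filters, DESeq2 1.42.0, limma-voom (limma 3.58.1), a replicate block and left-out libraries. Values in every library are given for members with non-overlapping groups, an unadjusted p under 0.05 or 1 library at least 1.5 times the next with at least 10 counts, for 10 fixed members and for the 4 genes of the further list with the smallest p. Promoters are on another build than the counts, and 39 of the members' 48 windows matched the start of a GENCODE transcript of the gene.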

Additional observations from a re-analysis of the deposited data

How the results depend on the processing

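No member and no gene of the further list passed in any of the 14 alternatives, where the lowest adjusted p was 0.411 (Tnf, no filter on low counts). Over all genes, 20 passed with no filter on low counts and between 0 and 1 with a library left out. Of 237 values of the 17 genes named with their fold change, 224 kept their direction and 13 did not. All 13 fell in Nfkb1, Rela, Nfkbia, Tnfaip3, Myd88 and Tnf. Relb and Ikbkb, whose groups also overlapped, did not turn. In the rest of the 17 genes the groups did not overlap. Leaving libraries out could hardly turn the sign there, so the tally does not show how stable those directions are. Tnf turned with limma-voom (−0.006) and was not tested at 5 CPM in 3 libraries. Leaving out APB-R3 replicate 1 and vehicle replicate 2 together gave −0.495 for Tnf, −0.409 for Tnfaip3, 0.017 for Relb, 0.048 for Rela and −0.05 for the inducible median. With 1 library left out, the log2 fold change ran from −0.169 to 0.054 for Nfkb1, 0.08 to 0.23 for Relb, −0.07 to 0.069 for Rela, −0.01 to 0.292 for Nfkbia, −0.232 to 0.345 for Tnfaip3, −0.097 to 0.161 for Myd88, −0.546 to 1.679 for Tnf, −0.056 to 0.206 for the inducible median and −0.014 to 0.055 for the constitutive one. The cause of these shifts was not tested beyond the library left out.

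Same-numbered libraries of the groups had correlations of their deviations of 0.022, 0.027 and 0.048, each the highest for its number. Values this low over all tested genes cannot decide whether these libraries were paired, and the main fit left them unpaired. With the replicate block 0 genes passed, 539 genes against 425 had an unadjusted p under 0.05, and the inducible and constitutive medians were 0.085 and 0.022. The block took Tnf from 1.132 to 0.453.

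Counts limit what can be read from members such as Nfkbid, Tab1 and Map3k14, which had between 21 and 89 counts in a library, and Tnf, which had as few as 9.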
